A study of Mus musculus with 18 samples.

Results

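This account covers 37 genes of DNA replication and mitosis, 22 that act in mitosis and 15 that act in S phase, out of 28692 genes named in the gene table of the single-cell files. The members were chosen by function, with earlier results of these data known. Gene identifiers of the bulk counts were matched to symbols through that table, and all 37 members had a count in the bulk libraries and a row in the single-cell matrices. The mitosis genes were Mki67, Top2a, Ccna2, Ccnb1, Ccnb2, Cdk1, Cdc20, Plk1, Aurka, Aurkb, Bub1, Bub1b, Birc5, Cenpa, Cenpe, Cenpf, Kif11, Kif20a, Kif23, Tpx2, Ube2c and Nusap1. The replication genes were Mcm2, Mcm3, Mcm4, Mcm5, Mcm6, Mcm7, Pcna, Rrm1, Rrm2, Tyms, Gins2, Cdc6, Cdt1, Cdc45 and E2f1.

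A dividing cell loads the MCM helicase onto its origins, fires them in S phase, and then builds a spindle that pulls the copied chromosomes apart. Transcripts of the replication genes rise towards S phase under E2F factors, and those of the mitosis genes rise later, in G2, under MuvB complexes that bind the CHR element of their promoters together with NF-Y at CCAAT boxes. In muscle, progenitors of the embryo and fetus divide often, satellite cells of the young animal divide and then withdraw, and adult satellite cells of resting muscle are largely quiescent until injury.

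The study set myogenic progenitors made from mouse pluripotent stem cells beside muscle progenitors of 3 ages. Bulk RNA was sequenced in 15 libraries, 3 for each of 5 groups. Cells named iPax3 and iPax7 were embryonic stem cell derivatives sorted out of embryoid bodies as Vcam1+Flk1- cells and grown for 3 passages with Dox, the inducer doxycycline, and bFGF. Emb and Fet were myoblasts of E10.5 embryos and E14.5 fetuses of a strain labelled My5Cre Rosa26YFP, and Neo were satellite cells of hindlimb muscle at postnatal day 3 of the strain Pax7-ZsGreen. The tissue cells were lysed freshly sorted, with no gate given, and had no culture or doxycycline, so culture and origin cannot be told apart between the iPax groups and the tissue groups. Likewise, strain and age cannot be told apart between Neo and the Emb and Fet groups. Droplet libraries of single cells, 1 each, came from iPax3 cells and from the tibialis anterior muscle of adult Pax7-ZsGreen mice aged 3 months. The labels do not say whether replicates came from separate cultures, clones or animals, so the spread behind each p-value is that between these libraries and may be technical only.

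Libraries differed in depth from 516504 counts in Fet replicate 1 to 56275318 in iPax3 replicate 1. The library labelled iPax7 replicate 1 went against its label: Pax7 was at 0.99 CPM (counts scaled to a library total of 1000000) there, against 111 and 349 in the other iPax7 libraries. Its pluripotency genes Pou5f1 and Nanog were at 550.3 and 511 CPM, against at most 8.41 and 2.31 in the other iPax libraries. Emb replicates 2 and 3 detected the fewest genes. There 10182 and 10330 genes reached 1 CPM, against 14552 in Emb replicate 1 and at least 12131 in every other library. What this adds to low or absent counts in Emb replicates 2 and 3 was not tested. Pax3 was at 295 to 355 CPM in iPax3. Pax7, the gene behind the Neo reporter, was at 0.495 to 5.12 CPM in Neo, below the 20.5 to 33.2 in Emb and 32.6 to 55.3 in Fet. A list of 8 muscle progenitor genes had its lowest group mean in Neo, 3.65 on the log2(CPM + 1) scale. That mean was 4.39 in Fet, 4.16 in Emb, 4.08 in iPax7 and 5.01 in iPax3. Neo also held transcripts of other cells: 8 endothelial genes averaged 7.46 to 7.87 on the log2(CPM + 1) scale in Neo, 4.12 to 5.65 in Fet, at most 2.31 in Emb and at most 2.10 in the iPax groups. Leukocyte, fibroblast, erythroid, and pericyte and smooth muscle lists of 8 genes each were likewise highest in Neo. Group means were 3.77, 8.66, 3.59 and 6.77 there and 0.72, 1.69, 0.07 and 2.76 in iPax3. A list of 8 neural and Schwann genes was instead highest in Emb. Its group mean was 5.23 in Emb, 4.43 in Fet, 3.38 in Neo, 2.78 in iPax7 and 2.19 in iPax3.

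Promoters of the 2 classes are shown here because the classes are kept apart below. RefSeq promoter windows on GRCm38.p6, from 250 bases before to 50 bases after an annotated start, were found for 31 of the 37 members; Ccna2, Aurkb, Kif20a, Tpx2, Mcm4 and Gins2 had none in the table. Both strands were searched for the CHR (TTTGAA or TTCGAA), the CCAAT box (CCAAT) and an E2F-like site (TTTCCCGC, TTTCGCGC, TTTGGCGC or TTTGCCGC). A CHR was in 14 of 18 windows of mitosis genes (77.8%), in 3 of 14 windows of replication genes (21.4%) and in 19.2% of all 32851 windows. A CCAAT box was in 16 of 18 mitosis windows (88.9%), in 10 of 14 replication windows (71.4%) and in 37.4% of all windows. Each of the 14 mitosis windows with a CHR also held a CCAAT box, a combination found in 3 of 14 replication windows and in 7.52% of all windows. An E2F-like site was in 6 of 14 replication windows (42.9%), in 1 of 18 mitosis windows (5.56%), that of Cdk1, and in 2.26% of all windows. A match describes letters in a window and is no evidence of binding, and starts of a gene can differ between annotations.

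The 250 bases before the start are printed 5′ to 3′ on the gene's own strand, with each match in capitals; a CCAAT box on the other strand reads ATTGG, a CHR reads TTCAAA and E2F-like sites read GCGGGAAA, GCGCGAAA or GCGCCAAA. Cdk1 (chr10:69352913-69353162, minus strand), Top2a (chr11:99024190-99024439, minus strand) and Ccnb2 (chr9:70421555-70421804, minus strand) show the CHR and CCAAT pattern of the mitosis genes, and Birc5 (chr11:117848987-117849236, plus strand) is shown because it held none of the 3 motifs. The windows of Nusap1, E2f1 and Tyms also held none of them and are not printed. Mcm5 (chr8:75109259-75109508, plus strand), Mcm6 (chr1:128359706-128359955, minus strand) and Cdc6 (chr11:98907901-98908150, plus strand) show the E2F-like sites of the replication genes. The Cdc6 stretch precedes its RefSeq start but lies within the gene in the annotation used for gene positions, which begins at chr11:98907801.
Cdk1: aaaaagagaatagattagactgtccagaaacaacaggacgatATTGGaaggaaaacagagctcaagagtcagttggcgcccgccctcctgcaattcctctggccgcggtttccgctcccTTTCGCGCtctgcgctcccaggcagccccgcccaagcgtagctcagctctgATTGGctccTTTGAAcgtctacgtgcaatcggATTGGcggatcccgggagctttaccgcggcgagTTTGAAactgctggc
Top2a: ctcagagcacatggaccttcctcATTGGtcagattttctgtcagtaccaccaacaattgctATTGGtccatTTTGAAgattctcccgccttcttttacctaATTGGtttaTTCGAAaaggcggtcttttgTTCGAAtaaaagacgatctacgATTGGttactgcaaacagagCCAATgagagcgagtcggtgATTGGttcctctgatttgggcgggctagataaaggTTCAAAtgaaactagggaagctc
Ccnb2: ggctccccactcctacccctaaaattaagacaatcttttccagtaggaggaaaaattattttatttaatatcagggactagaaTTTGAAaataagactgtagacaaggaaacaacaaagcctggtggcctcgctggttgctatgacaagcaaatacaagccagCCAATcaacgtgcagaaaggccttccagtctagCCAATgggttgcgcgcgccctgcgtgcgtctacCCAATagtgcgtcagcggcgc
Birc5: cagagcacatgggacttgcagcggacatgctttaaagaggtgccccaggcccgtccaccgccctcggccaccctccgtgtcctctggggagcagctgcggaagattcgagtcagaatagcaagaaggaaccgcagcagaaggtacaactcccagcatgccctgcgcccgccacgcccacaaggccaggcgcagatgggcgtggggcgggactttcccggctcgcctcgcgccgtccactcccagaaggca
Mcm5: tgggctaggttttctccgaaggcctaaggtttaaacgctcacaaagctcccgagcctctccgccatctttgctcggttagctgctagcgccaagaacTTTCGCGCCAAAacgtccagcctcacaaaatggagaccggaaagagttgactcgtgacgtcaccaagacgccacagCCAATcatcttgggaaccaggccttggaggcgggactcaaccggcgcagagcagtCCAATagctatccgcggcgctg
Mcm6: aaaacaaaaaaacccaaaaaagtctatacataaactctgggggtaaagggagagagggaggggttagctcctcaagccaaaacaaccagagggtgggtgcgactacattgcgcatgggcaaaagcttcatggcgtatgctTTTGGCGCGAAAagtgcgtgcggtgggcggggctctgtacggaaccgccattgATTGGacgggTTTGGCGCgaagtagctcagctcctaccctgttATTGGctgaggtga
Cdc6: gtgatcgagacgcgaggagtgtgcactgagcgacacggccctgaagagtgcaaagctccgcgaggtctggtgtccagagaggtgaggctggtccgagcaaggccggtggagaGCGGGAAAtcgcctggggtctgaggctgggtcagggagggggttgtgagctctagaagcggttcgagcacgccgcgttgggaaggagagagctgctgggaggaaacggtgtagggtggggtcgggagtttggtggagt
In this stretch Cdk1 carried 2 CHRs and 3 CCAAT boxes beside its E2F-like site, and Top2a carried 4 CHRs and 6 CCAAT boxes. In Mcm5 and in Mcm6 a pair of E2F-like sites on opposite strands overlapped. No match in the Birc5 window says only that these letters are absent from it.

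Both classes were lowest in the neonatal libraries. Over the 22 mitosis genes, log2(CPM + 1) averaged 5.37 ± 0.20 (SD, n = 3) in Neo, 6.53 ± 0.29 in Fet, 6.75 ± 0.32 in Emb, 7.24 ± 0.71 in iPax7 and 7.27 ± 0.26 in iPax3. Over the 15 replication genes it averaged 5.44 ± 0.24, 6.33 ± 0.26, 6.48 ± 0.51, 6.84 ± 0.80 and 6.85 ± 0.24 in that order of groups. All 3 Neo libraries lay below the other 12 in both classes. Neo had the lowest group mean for 21 of 22 mitosis genes, the exception being Birc5, and for 15 of 15 replication genes. That share over all tested genes was not computed. All Neo libraries lay below all iPax3 libraries for 18 mitosis and 12 replication genes, and for 34% of the 17571 tested genes. Such counts were 17 and 7 against iPax7 (25.8%), 16 and 8 against Emb (13.2%), and 14 and 8 against Fet (15.3%). In bulk RNA, fewer cycling cells and less of these transcripts per cell cannot be told apart.

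**Figure D1:**
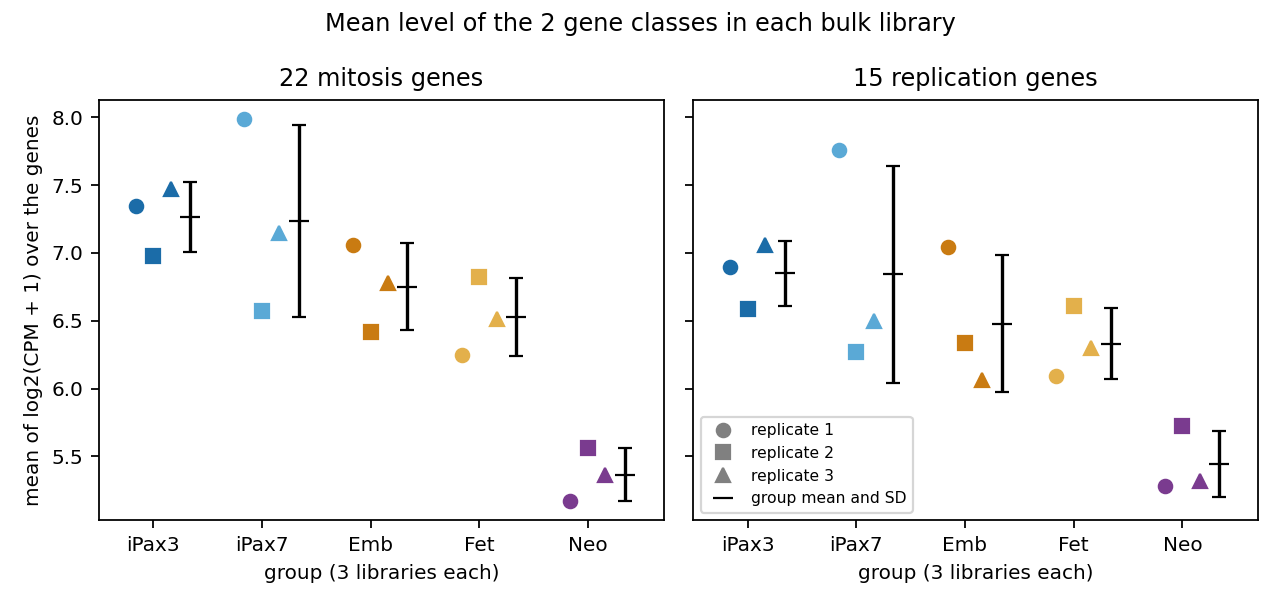
Mean of log2(CPM + 1) over the 22 mitosis genes (left) and the 15 replication genes (right) in each of the 15 bulk libraries, with the group mean and SD in black. The 3 Neo libraries lie between 5.17 and 5.56 for mitosis and between 5.28 and 5.72 for replication, and iPax7 replicate 1 is the highest library in both panels.

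The wide spread of iPax7 came with replicate 1, the library with pluripotency transcripts. Its mitosis mean was 7.99, against 6.58 and 7.14 in the other iPax7 libraries, and its replication mean 7.76, against 6.27 and 6.50. It held the highest value of all 15 libraries for 16 of 22 mitosis genes and 9 of 15 replication genes. The share of all tested genes with their highest value in that library was not computed. The difference of replication minus mitosis mean ran from -0.45 to -0.39 in iPax3 and from -0.04 to 0.16 in Neo. It ran from -0.64 to -0.23 in iPax7 and from -0.22 to -0.16 in Fet. Emb ran from -0.72 in replicate 3 to -0.02 in replicate 1, which covers the iPax3 range and the low end of the Neo range. These class means are descriptions of the chosen genes and carry no test.

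Mitosis genes were higher in both stem cell-derived groups than in the neonatal cells. Of the 22, 15 were higher and 0 lower in iPax3 than in Neo, where 11.3% of the 17571 tested genes were called higher, with a median log2 fold change of 2.02 against 0.20 over all tested genes. In iPax7 against Neo 16 were higher and 0 lower (background 9.83%, median 2.06 against 0.30). Calls were made with edgeR's quasi-likelihood test on all 15 libraries at a Benjamini-Hochberg adjusted p under 0.05 over all tested genes, and all 37 members passed the filter on low counts. Of the 15 calls in iPax3, 14 held under all 12 alternatives run, Cdc20 being the exception; of the 16 in iPax7, 14 did, the exceptions being Nusap1 and Cdc20, the latter lost under 8 of 12 alternatives, among them leaving out iPax7 replicate 1 or 3 or Neo replicate 1, 2 or 3 (range over the alternatives 2.58 to 3.68). Without the library labelled iPax7 replicate 1 there were 14 calls. The endothelial, leukocyte, fibroblast and erythroid markers given above moved with Neo in each of these comparisons, and their part in the result was not tested.

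Cyclin B and its kinase Cdk1, which together drive entry into mitosis, come first. Ccnb1, at chr13:100778650-100786570 on the minus strand, encodes cyclin B1 and was at 142, 124 and 174 CPM in iPax3, 159, 81.98 and 106 in iPax7, 68.9, 124 and 49.1 in Emb, 51.9, 76.8 and 57.2 in Fet, and 8.91, 18.3 and 13.5 in Neo. Every Neo library was below every other library, and no other group stood apart from all the rest. The log2 fold change was 3.44 ± 0.42 (SE, adjusted p = 3.9e-05) for iPax3 against Neo and 3.09 ± 0.42 (SE, adjusted p = 0.00013) for iPax7 against Neo. Ccnb1 fell by 2.58 ± 0.41 (SE, adjusted p = 0.00059) from Emb to Neo on the log2 scale. In Neo against Fet its log2 fold change was -2.21 ± 0.41 (SE, adjusted p = 0.0086), a call lost under 1 of 12 alternatives, the fit without Fet replicate 2 (range over the alternatives -1.98 to -2.50).

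Ccnb2, the second B-type cyclin, was at 81.4, 62.1 and 82.04 CPM in iPax3, 247, 60.2 and 107 in iPax7, 39.3, 36.7 and 41.3 in Emb, 29.4, 53.1 and 35.6 in Fet, and 22.5, 19.3 and 14.7 in Neo. All 3 Neo libraries lay below all others, Emb and Fet overlapped, and iPax7 replicate 1 stood far above the rest. Ccnb2 was higher in iPax3 than in Neo by 1.99 ± 0.45 (SE, adjusted p = 0.0051), and in iPax7 than in Neo by 2.87 ± 0.46 (SE, adjusted p = 0.00063). It was also called higher in iPax7 than in Emb, 1.82 ± 0.44 (SE, adjusted p = 0.014), and than in Fet, 1.79 ± 0.45 (SE, adjusted p = 0.033). Without iPax7 replicate 1 these were 1.11 (adjusted p = 0.081) and 1.08 (adjusted p = 0.18). Cdk1, the kinase partner of these cyclins, was at 161, 117 and 187 CPM in iPax3, 193, 87.6 and 114 in iPax7, 55.9, 43.1 and 105 in Emb, 109, 101 and 84.3 in Fet, and 45.8, 24.6 and 29.2 in Neo. The iPax3 libraries were all above the Emb libraries, with 117 CPM the lowest of the former and 105 the highest of the latter, and Neo replicate 1 overlapped the Emb range. Cdk1 was higher in iPax3 than in Neo by 2.22 ± 0.40 (SE, adjusted p = 0.0011) and in iPax7 than in Neo by 1.98 ± 0.40 (SE, adjusted p = 0.0033). Against Emb it was higher in iPax3 by 1.19 ± 0.39 (SE, adjusted p = 0.0454), a call lost under 7 of 12 alternatives, among them leaving out iPax3 replicate 1, 2 or 3 or Emb replicate 1 or 2 (range over the alternatives 0.97 to 1.66).

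Regulators of mitotic exit and the mitotic kinases followed. Cdc20, which activates the anaphase-promoting complex, was at 113, 85.8 and 101 CPM in iPax3, 179, 41.7 and 80.6 in iPax7, 37.5, 0.286 and 15.6 in Emb, 27.7, 28.2 and 21.9 in Fet, and 4.88, 11.3 and 15.04 in Neo. The iPax libraries were all above the tissue libraries, but Emb ranged over 2 orders of magnitude, with 5 counts in replicate 2. Emb replicate 2 also detected the fewest genes of the 15 libraries. The fold change of Cdc20 was 3.28 ± 0.98 (SE, adjusted p = 0.026) for iPax3 against Neo, a call lost under 5 of 12 alternatives, among them leaving out iPax3 replicate 1 or 3 or Neo replicate 1 or 2 (range over the alternatives 2.93 to 3.67), and 2.49 ± 0.94 (SE, adjusted p = 0.079) for iPax3 against Emb, which did not pass. Ube2c, the ubiquitin-conjugating enzyme that works with Cdc20, showed the same gap, with 30.4, 0.229 and 65.0 CPM in Emb, and none of its 10 comparisons passed. Plk1, a kinase needed for spindle poles and for mitotic entry, was at 148, 133 and 171 CPM in iPax3, 211, 81.8 and 112 in iPax7, 119.6, 106 and 115 in Emb, 72.6, 44.5 and 44.99 in Fet, and 8.14, 36.6 and 17.8 in Neo. All iPax libraries and all Emb libraries lay above all Neo libraries, with Fet between. Plk1 was higher by 2.86 ± 0.48 (SE, adjusted p = 0.00056) in iPax3 than in Neo, and fell by 2.45 ± 0.47 (SE, adjusted p = 0.0024) from Emb to Neo. Against Fet, iPax3 differed by 1.504 ± 0.46 (SE, adjusted p = 0.053), which missed the threshold. Aurka, the centrosomal Aurora kinase, was higher in iPax3 than in Neo by 2.05 ± 0.40 (SE, adjusted p = 0.0020), with group means of 107 ± 19.5 and 25.9 ± 4.18 CPM (SD, n = 3).

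Its relative Aurkb, the kinase of the chromosomal passenger complex, behaved otherwise. Aurkb was at 46.7, 29.4 and 49.2 CPM in iPax3, 84.1, 24.4 and 37.8 in iPax7, 45.6, 26.9 and 55.02 in Emb, 25.9, 33.2 and 34.6 in Fet, and 50.3, 15.3 and 12.04 in Neo. Neo replicate 1 was as high as the iPax3 libraries while the other Neo libraries were the lowest of all 15, and no comparison of Aurkb passed (0.68 ± 0.58 (SE, adjusted p = 0.43) for iPax3 against Neo). Birc5, the survivin subunit of the same complex, was at 321, 243 and 349 CPM in iPax3, 367, 171 and 273 in iPax7, 472, 975 and 895 in Emb, 409.8, 263 and 275 in Fet, and 282, 418 and 189.6 in Neo. It was highest in Emb, where all 3 libraries lay above the other 12, and the other groups overlapped. Birc5 was lower in iPax3 than in Emb by a log2 fold change of -1.36 ± 0.36 (SE, adjusted p = 0.017), in iPax7 than in Emb by -1.53 ± 0.36 (SE, adjusted p = 0.012) and in Neo than in Emb by -1.40 ± 0.36 (SE, adjusted p = 0.014). Against Neo it was at 0.04 ± 0.35 (SE, adjusted p = 0.96) in iPax3, and its sign there changed with the scaling, -0.21 with DESeq2's size factors. The call for iPax3 against Emb was lost under 4 of 12 alternatives, each of them leaving out iPax3 replicate 1 or 2 or Emb replicate 2 or 3 (range over the alternatives -1.14 to -1.60), that for iPax7 was lost under 5 of 12 alternatives, among them leaving out iPax7 replicate 2 or 3 or Emb replicate 2 or 3 (range over the alternatives -1.27 to -1.82), and that for Neo was lost under 3 of 12 alternatives, each of them leaving out Emb replicate 2 or 3 or Neo replicate 3 (range over the alternatives -1.16 to -1.73).

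Of the checkpoint and kinetochore genes, Bub1, Bub1b, Cenpe and Cenpf were higher in iPax3 than in Neo and Cenpa was not called. Bub1, a kinase of the spindle assembly checkpoint, was at 111, 98.7 and 127 CPM in iPax3, 279, 70.8 and 85.4 in iPax7, 139, 45.8 and 58.4 in Emb, 50.1, 89.4 and 63.7 in Fet, and 9.41, 19.6 and 18.4 in Neo. No Neo library exceeded 19.6 CPM and no other library was under 45.8. The log2 fold change of Bub1 was 2.84 ± 0.55 (SE, adjusted p = 0.0018) for iPax3 against Neo and 3.21 ± 0.56 (SE, adjusted p = 0.0012) for iPax7 against Neo, and Bub1 fell by 2.37 ± 0.54 (SE, adjusted p = 0.0068) from Emb to Neo. Bub1b, which encodes the checkpoint protein BubR1, was at 149, 99.6 and 179.9 CPM in iPax3, 329, 97.3 and 122 in iPax7, 129, 54.5 and 77.02 in Emb, 63.98, 82.1 and 71.01 in Fet, and 36.6, 48.5 and 39.1 in Neo. Neo did not overlap any other group for Bub1b, which was higher in iPax3 than in Neo by 1.79 ± 0.44 (SE, adjusted p = 0.0087). Cenpe, the kinesin of the kinetochore, was at 292, 234 and 329 CPM in iPax3, 219.8, 185 and 228 in iPax7, 258, 173 and 126 in Emb, 79.5, 252 and 207 in Fet, and 69.05, 60.1 and 50.3 in Neo. Among the other libraries Fet replicate 1, at 79.5 CPM, came nearest to Neo. Cenpe was higher in iPax3 than in Neo by 2.25 ± 0.37 (SE, adjusted p = 0.00051). It was lower in Neo than in Fet by a log2 fold change of -1.60 ± 0.37 (SE, adjusted p = 0.029), lost under 6 of 12 alternatives, among them leaving out Fet replicate 2 or 3 or Neo replicate 1, 2 or 3 (range over the alternatives -1.28 to -1.95). Cenpf, a large kinetochore and matrix protein, was at 226, 185 and 237 CPM in iPax3, 388, 169.97 and 224 in iPax7, 196, 172 and 196 in Emb, 62.3, 233 and 150.00 in Fet, and 34.9, 66.3 and 39.7 in Neo. Fet replicate 1, at 62.3 CPM, lay below Neo replicate 2, at 66.3, and the remaining 11 libraries lay above both. Cenpf was higher in iPax3 than in Neo by 2.201 ± 0.42 (SE, adjusted p = 0.0016). Cenpa, the histone variant of centromeres, was at 163, 103 and 199 CPM in iPax3, 307, 77.6 and 126 in iPax7, 255, 340.1 and 238 in Emb, 149, 96.8 and 98.4 in Fet, and 55.5, 129 and 89.4 in Neo. It overlapped between iPax3 and Neo and was called for Neo against Emb alone, at -1.61 ± 0.45 (SE, adjusted p = 0.021), lost under 3 of 12 alternatives, each of them leaving out Emb replicate 2 or Neo replicate 1 or 3 (range over the alternatives -1.36 to -1.95).

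Spindle motors and assembly factors separated the stem cell-derived cells from Neo and, for 1 of them, from Emb. Kif23, a kinesin of the central spindle in cytokinesis, was at 222, 181 and 251 CPM in iPax3, 216, 123 and 156 in iPax7, 105, 61.9 and 49.7 in Emb, 41.5, 114 and 107 in Fet, and 38.8, 52.6 and 58.7 in Neo. Every iPax library exceeded every tissue library. Kif23 was higher in iPax3 than in Emb by 1.60 ± 0.38 (SE, adjusted p = 0.010), than in Fet by 1.29 ± 0.38 (SE, adjusted p = 0.0462) and than in Neo by 2.12 ± 0.39 (SE, adjusted p = 0.0012); in iPax7 it was higher than in Emb by 1.19 ± 0.38 (SE, adjusted p = 0.0464) and than in Neo by 1.72 ± 0.39 (SE, adjusted p = 0.0066). The call for iPax3 against Emb was lost under 1 of 12 alternatives, the fit without Emb replicate 3 (range over the alternatives 1.39 to 1.99). That for iPax3 against Fet was lost under 9 of 12 alternatives, among them leaving out iPax3 replicate 1, 2 or 3 or Fet replicate 1, 2 or 3 (range over the alternatives 0.96 to 1.54), and that for iPax7 against Emb was lost under 7 of 12 alternatives, among them leaving out iPax7 replicate 1 or 3 or Emb replicate 2 or 3 (range over the alternatives 0.94 to 1.57). Kif20a, another cytokinesis kinesin, was at 129, 113 and 153 CPM in iPax3, 204, 80.6 and 129.8 in iPax7, 78.5, 111 and 35.6 in Emb, 17.3, 63.7 and 42.3 in Fet, and 8.21, 17.1 and 27.1 in Neo. The iPax libraries were all above Fet and Neo, and Emb replicate 2 reached into their range. Kif20a was higher in iPax3 than in Neo by 2.93 ± 0.55 (SE, adjusted p = 0.0015). Tpx2, which nucleates spindle microtubules and activates Aurka, was at 265, 209.8 and 283 CPM in iPax3, 402, 160.5 and 234 in iPax7, 248, 155 and 224 in Emb, 150.4, 195 and 145 in Fet, and 62.7, 61.5 and 65.9 in Neo. The 3 Neo libraries lay close together, and every other library was at least 145 CPM. Tpx2 was higher by 1.995 ± 0.32 (SE, adjusted p = 0.00041) in iPax3 and by 2.07 ± 0.32 (SE, adjusted p = 0.00046) in iPax7, and fell by 1.72 ± 0.32 (SE, adjusted p = 0.0018) from Emb to Neo. Kif11, the motor that separates spindle poles, was higher in iPax3 than in Neo by 1.94 ± 0.46 (SE, adjusted p = 0.0069).

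Nusap1, which bundles spindle microtubules, was at 59.9, 47.1 and 55.8 CPM in iPax3, 214, 57.8 and 85.3 in iPax7, 80.6, 117 and 108 in Emb, 50.1, 88.2 and 69.4 in Fet, and 15.99, 44.6 and 34.9 in Neo. The 3 iPax3 libraries, at 47.1 to 59.9 CPM, lay just above the Neo range, and iPax7 replicate 1 was the highest of all. Nusap1 was higher in iPax7 than in Neo by 1.91 ± 0.47 (SE, adjusted p = 0.012), or 1.19 (adjusted p = 0.065) without that library, and was not called in iPax3, 0.78 ± 0.46 (SE, adjusted p = 0.24). Top2a, which untangles copied chromosomes, was at 787, 606 and 920.03 CPM in iPax3, 1498, 472 and 679 in iPax7, 815, 891 and 509.6 in Emb, 424, 782 and 618 in Fet, and 227, 219 and 148 in Neo. No Neo library exceeded 227 CPM, and no other was under 424. Top2a was higher in iPax3 than in Neo by 1.96 ± 0.39 (SE, adjusted p = 0.0020). In Neo against Fet its log2 fold change was -1.62 ± 0.38 (SE, adjusted p = 0.034), a call lost under 5 of 12 alternatives, each of them leaving out Fet replicate 2 or 3 or Neo replicate 1, 2 or 3 (range over the alternatives -1.40 to -1.84).

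Mki67, the chromosome-coating protein Ki-67 used as a marker of cycling cells, changed less than most of its class. It was at 476, 348 and 472 CPM in iPax3, 368, 303 and 570.3 in iPax7, 791, 397 and 739 in Emb, 330.3, 829.6 and 637 in Fet, and 269, 366 and 256 in Neo. Emb and Fet held the highest values, and iPax3, iPax7 and Neo overlapped. Mki67 did not pass for iPax3 against Neo, 0.54 ± 0.35 (SE, adjusted p = 0.28), and was lower in Neo than in Emb by a log2 fold change of -1.11 ± 0.35 (SE, adjusted p = 0.036), lost under 7 of 12 alternatives, among them leaving out Emb replicate 1 or 3 or Neo replicate 1 or 3 (range over the alternatives -0.94 to -1.37). Ccna2, cyclin A2, was likewise called for Neo against Emb alone, at -1.19 ± 0.32 (SE, adjusted p = 0.016) (not without Neo replicate 3, -1.05), with 71.0 to 112 CPM in Neo and 129 to 168 in iPax3. Per kilobase of exon, Birc5 had the highest level of the mitosis genes in Neo, 87.1 CPM per kb, and Cenpf the lowest, 3.04. In iPax3 Birc5 and Top2a were close, at 89.4 and 85.5 CPM per kb.

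**Figure D2:**
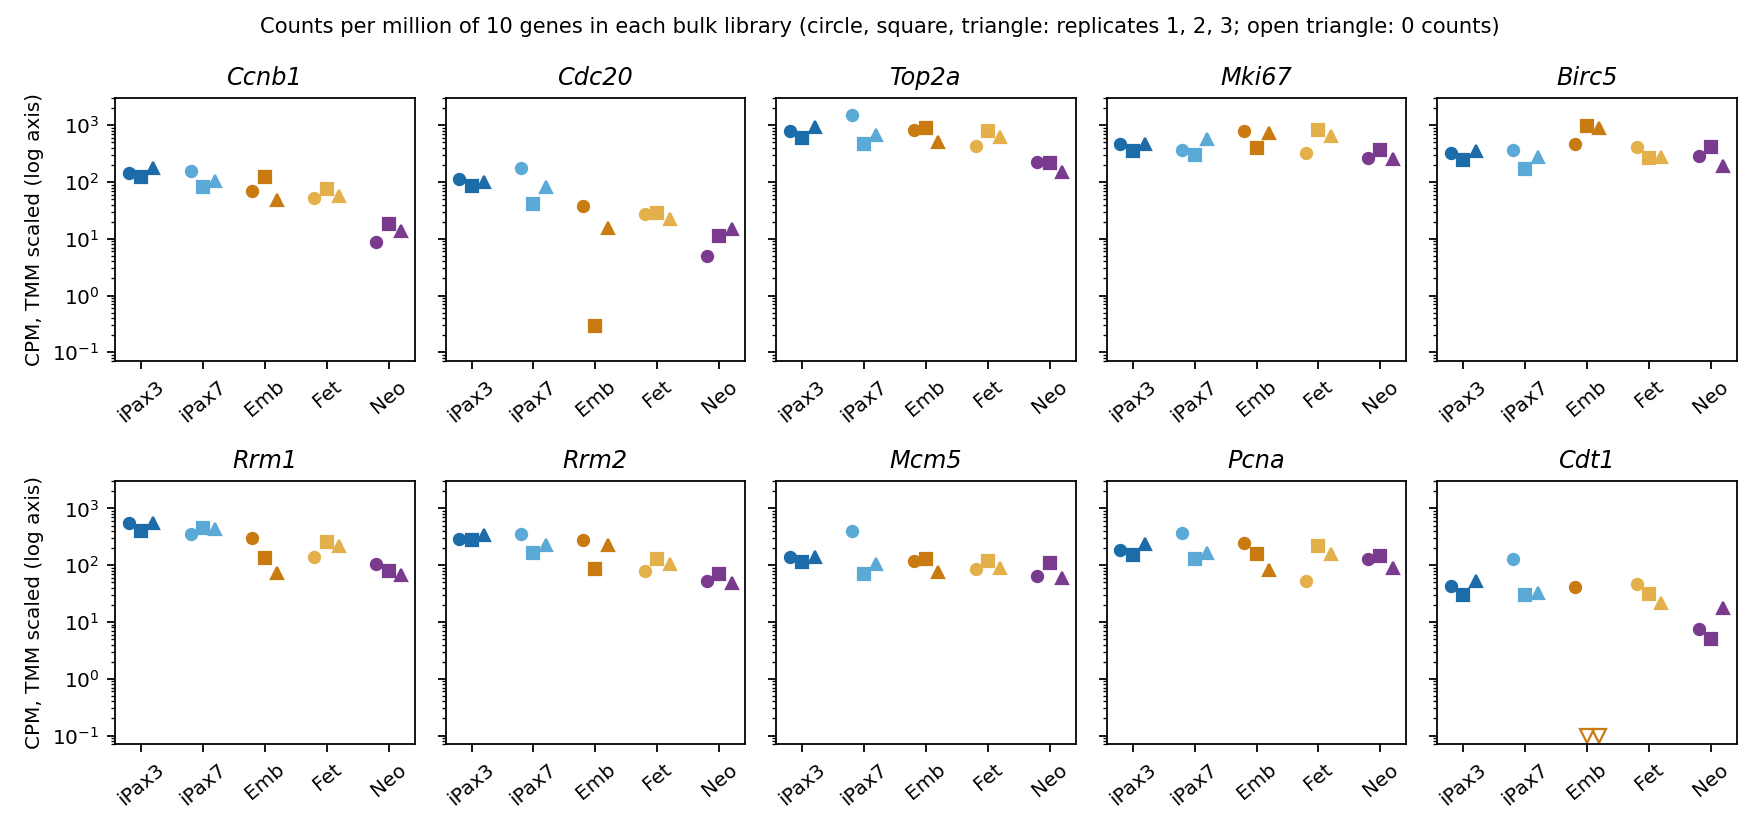
CPM on a log axis of 5 mitosis genes (top row) and 5 replication genes (bottom row) in each bulk library, with 1 point per library and open triangles for 0 counts. Ccnb1, Top2a, Rrm1 and Rrm2 are low in all 3 Neo libraries, Mki67 overlaps between Neo and both iPax groups, Mcm5 and Pcna overlap between Neo and iPax7, and Cdc20 drops in 1 and Cdt1 in 2 Emb libraries.

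Replication genes moved in the same direction with fewer calls. Of the 15, 5 were higher and 0 lower in iPax3 than in Neo (background 11.3%, median log2 fold change 1.14 against 0.20 over all tested genes), namely Tyms, Rrm1, Rrm2, Mcm7 and Mcm2. In iPax7 against Neo 7 were higher and 0 lower (background 9.83%, median 1.51 against 0.30), the same 5 with Mcm3 and Mcm6. Without the library labelled iPax7 replicate 1 there were 4, with Mcm2, Mcm3 and Mcm6 lost; 4 also remained without Neo replicate 1, without Neo replicate 3 and in a fit of the 2 groups alone. Tyms, Rrm1, Rrm2 and Mcm7 kept their calls for both iPax groups against Neo under all 12 alternatives. The difference between the classes in the share of members called was not tested.

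Genes of nucleotide synthesis stood out among the replication members. Rrm1, at chr7:102441695-102469771 on the plus strand, encodes the large subunit of ribonucleotide reductase and was at 547, 405 and 551 CPM in iPax3, 360.00, 446 and 440.05 in iPax7, 298, 132 and 73.05 in Emb, 142, 253 and 219 in Fet, and 106, 80.6 and 68.3 in Neo. All 6 iPax libraries were above all 9 tissue libraries. Rrm1 was higher in iPax3 than in Emb by 1.58 ± 0.40 (SE, adjusted p = 0.013), than in Neo by 2.56 ± 0.41 (SE, adjusted p = 0.00040), and than in Fet by 1.28 ± 0.39 (SE, adjusted p = 0.053), which missed the threshold. In iPax7 it was higher than in Neo by 2.29 ± 0.41 (SE, adjusted p = 0.0013) and than in Emb by 1.31 ± 0.39 (SE, adjusted p = 0.037), the latter lost under 5 of 12 alternatives, among them leaving out iPax7 replicate 2 or 3 or Emb replicate 2 or 3 (range over the alternatives 0.99 to 2.03). The call for iPax3 against Emb was lost under 2 of 12 alternatives, among them leaving out Emb replicate 2 (range over the alternatives 1.22 to 2.32). Rrm2, the small subunit whose supply limits the enzyme, was at 289.9, 277 and 335 CPM in iPax3, 356, 167 and 227 in iPax7, 282, 86.5 and 231 in Emb, 79.5, 129 and 103 in Fet, and 53.2, 69.03 and 48.7 in Neo. Neo lay below every other library, and the iPax3 libraries lay above all Fet libraries. Rrm2 was higher in iPax3 than in Neo by 2.40 ± 0.40 (SE, adjusted p = 0.00049) and fell by 1.81 ± 0.39 (SE, adjusted p = 0.0047) from Emb to Neo. It was higher in iPax3 than in Fet by 1.52 ± 0.38 (SE, adjusted p = 0.021), lost under 5 of 12 alternatives, among them leaving out iPax3 replicate 1 or 3 or Fet replicate 1 or 3 (range over the alternatives 1.35 to 1.73). Tyms, thymidylate synthase, was at 190.4, 149 and 206 CPM in iPax3, 127, 84.1 and 121 in iPax7, 125, 75.6 and 61.1 in Emb, 86.5, 94.4 and 102 in Fet, and 17.6, 34.8 and 42.1 in Neo. No Neo library exceeded 42.1 CPM, and no other was under 61.1. Tyms was higher in iPax3 than in Neo by 2.54 ± 0.37 (SE, adjusted p = 0.00017). Against Emb it was higher in iPax3 by 1.06 ± 0.35 (SE, adjusted p = 0.0481), lost under 10 of 12 alternatives, among them leaving out iPax3 replicate 1, 2 or 3 or Emb replicate 2 or 3 (range over the alternatives 0.87 to 1.43). It was lower in Neo than in Fet by a log2 fold change of -1.59 ± 0.36 (SE, adjusted p = 0.028), lost under 6 of 12 alternatives, among them leaving out Fet replicate 1, 2 or 3 or Neo replicate 1 or 2 (range over the alternatives -1.31 to -1.86).

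The MCM helicase subunits form 1 ring but did not move alike. Mcm7 was at 287, 231 and 327 CPM in iPax3, 576, 212 and 181 in iPax7, 286, 224 and 139.9 in Emb, 95.1, 157 and 114 in Fet, and 65.5, 72.3 and 46.6 in Neo. Neo lay below every other library, and Mcm7 was higher by 2.19 ± 0.41 (SE, adjusted p = 0.0015) in iPax3 and by 2.39 ± 0.42 (SE, adjusted p = 0.0012) in iPax7. Its exons overlap those of Ap4m1 and Cops6 on the other strand and hold Mir25 and Mir93, and the strand setting of the authors' counting is not given in the sources used here. Mcm2 was at 123, 111 and 127 CPM in iPax3, 308, 69.4 and 86.2 in iPax7, 156, 103 and 67.5 in Emb, 135, 99.5 and 78.00 in Fet, and 46.97, 57.9 and 35.5 in Neo. Neo was below all other libraries, and Mcm2 passed for iPax3 against Neo at 1.36 ± 0.48 (SE, adjusted p = 0.0493), lost under 8 of 12 alternatives, among them leaving out iPax3 replicate 1, 2 or 3 or Neo replicate 1, 2 or 3 (range over the alternatives 1.12 to 1.58). Mcm5 was at 139.5, 112 and 138 CPM in iPax3, 394, 69.2 and 106 in iPax7, 119, 129 and 77.4 in Emb, 86.5, 119 and 88.4 in Fet, and 64.4, 109.5 and 59.6 in Neo. Its Neo and iPax7 ranges overlapped, its iPax3 values all lay above Neo by a narrow gap, and none of its comparisons passed (0.74 ± 0.48 (SE, adjusted p = 0.29) for iPax3 against Neo). Mcm3 was at 158, 132 and 179 CPM in iPax3, 409.6, 95.7 and 114 in iPax7, 226, 253 and 245 in Emb, 126, 169 and 139.5 in Fet, and 43.1, 115 and 54.5 in Neo. Neo overlapped iPax7, and all 3 Emb libraries lay above all 3 Neo libraries. Mcm3 was lower in Neo than in Emb by a log2 fold change of -1.77 ± 0.47 (SE, adjusted p = 0.017), lost under 2 of 12 alternatives, each of them leaving out Neo replicate 1 or 3 (range over the alternatives -1.53 to -2.32). Its call for iPax7 against Neo, 1.55 ± 0.47 (SE, adjusted p = 0.032), was lost under 7 of 12 alternatives, among them leaving out iPax7 replicate 1 or Neo replicate 1 or 3 (range over the alternatives 0.57 to 2.11). Mcm6 was at 136, 108 and 159.5 CPM in iPax3, 405, 109 and 113 in iPax7, 139, 154 and 78.6 in Emb, 107, 211 and 163 in Fet, and 78.7, 94.98 and 60.5 in Neo. Neo overlapped Emb alone, iPax7 replicate 1 was far above the rest, and its call for iPax7 against Neo, 1.42 ± 0.46 (SE, adjusted p = 0.040), became 0.53 (adjusted p = 0.32) without it. Mcm4 ranged from 66.3 to 104.4 CPM in Neo and from 104.1 to 159.5 in iPax3, ranges that overlapped, and did not pass in any comparison.

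Of the factors of helicase loading and activation, the sliding clamp and E2f1, 2 were called, both in Neo against Emb alone. Cdc6, which loads the helicase, was at 36.3, 28.1 and 44.9 CPM in iPax3, 64.2, 21.5 and 20.2 in iPax7, 61.2, 127 and 44.2 in Emb, 24.2, 41.5 and 39.5 in Fet, and 19.7, 31.99 and 18.1 in Neo. Emb was above all Neo libraries and Emb replicate 2 above all others, and Cdc6 was lower in Neo than in Emb by a log2 fold change of -1.74 ± 0.54 (SE, adjusted p = 0.034), lost under 5 of 12 alternatives, among them leaving out Emb replicate 2 or Neo replicate 1 or 3 (range over the alternatives -1.19 to -2.04). Cdt1, the second loader, was at 42.8, 30.4 and 51.9 CPM in iPax3, 127, 29.4 and 31.8 in iPax7, 41.2, 0 and 0 in Emb, 46.7, 31.2 and 21.8 in Fet, and 7.64, 5.06 and 17.5 in Neo. It had 533 counts in Emb replicate 1 and 0 in Emb replicates 2 and 3, where 3 counts, the limit that a count of 0 allows, are worth 0.171 and 0.220 CPM, and no comparison of Cdt1 passed. Emb replicates 2 and 3 also detected the fewest genes, and the part of this in the 0 counts was not tested. Without Emb replicate 1, which leaves Emb at 0 counts, Cdt1 passed for iPax3, iPax7 and Neo against Emb (edgeR adjusted p = 0.00012, 0.00012 and 0.00040), and its fitted fold changes are then no measure of size. Cdc45, part of the active helicase, was at 50.4, 34.7 and 57.7 CPM in iPax3, 70.1, 31.1 and 32.8 in iPax7, 57.8, 75.3 and 17.5 in Emb, 38.04, 30.2 and 23.5 in Fet, and 13.4, 32.2 and 11.7 in Neo. Its Emb values overlapped those of every other group, and no comparison passed. Gins2, another helicase subunit, ranged from 11.4 to 22.9 CPM in Neo, from 32.0 to 39.1 in iPax3 and from 14.8 to 82.0 in Emb, also with no call. Pcna, the sliding clamp of DNA polymerases, was at 189, 148 and 235 CPM in iPax3, 372, 128 and 166 in iPax7, 245, 155 and 80.7 in Emb, 51.9, 218 and 158 in Fet, and 129, 144 and 89.97 in Neo. Its lowest value was in Fet replicate 1, from 30 counts, and Neo overlapped iPax7, Emb and Fet. The fold change of Pcna for iPax3 against Neo, 0.66 ± 0.49 (SE, adjusted p = 0.36), did not pass. E2f1, the activating factor itself, was at 56.01, 42.2 and 54.02 CPM in iPax3, 110.4, 39.2 and 64.1 in iPax7, 72.5, 77.2 and 154 in Emb, 44.96, 59.7 and 64.7 in Fet, and 15.9, 49.8 and 35.8 in Neo. Emb replicate 3 was the highest library, and E2f1 was called only for Neo against Emb, at -1.58 ± 0.47 (SE, adjusted p = 0.028), lost under 5 of 12 alternatives, among them leaving out Emb replicate 3 or Neo replicate 1 or 3 (range over the alternatives -1.10 to -1.98).

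Neonatal cells were compared with the earlier tissue stages by the same test. Strain differed between Neo and both earlier stages, so age and strain cannot be told apart in these comparisons. In Neo against Emb, 15 of 22 mitosis genes were lower and 0 higher, where 8.43% of tested genes were lower, with a median of -1.50 against 0 over all tested genes. Of the replication genes 6 of 15 were lower and 0 higher (median -1.39): Rrm2, Mcm7, Tyms, Mcm3, E2f1 and Cdc6. Of these calls 8 mitosis and 2 replication calls held under all 12 alternatives, the latter Rrm2 and Mcm7, and 3 replication calls remained without Neo replicate 1, without Neo replicate 3 and in a fit of the 2 groups alone. In Neo against Fet, 7 mitosis genes were lower and 0 higher (background 1.0%, median -1.25), and 1 replication gene, Tyms, was lower (median -0.88; -0.14 over all tested genes). These 7 were Ccnb1, Cenpe, Tpx2, Top2a, Cenpf, Bub1 and Cdk1. They became 0 without Fet replicate 2, 1 without Fet replicate 3 or any 1 of the Neo libraries, and 4 without Fet replicate 1 and with DESeq2's size factors. Endothelial and fibroblast markers rose from Emb over Fet to Neo while these genes fell, and neural and Schwann markers fell with them. The part of these markers in the result was not tested.

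Against the earlier tissue stages the stem cell-derived groups differed in single genes. In iPax3 against Emb, 2 mitosis genes were higher, Kif23 and Cdk1 (background 9.34%), and 1, Birc5, was lower (background 7.64%), while 2 replication genes were higher, Rrm1 and Tyms. In iPax3 against Fet, Kif23 and Rrm2 were higher and none lower (background 2.85% higher and 5.68% lower). In iPax7 against Emb, Ccnb2, Kif23 and Rrm1 were higher (background 8.51%) and Birc5 lower (background 5.54%). In iPax7 against Fet, Ccnb2 alone was higher (background 0.95%) and none lower (background 2.75%), and 0 replication genes were called by edgeR, with 3 at an unadjusted p under 0.05 and 1 called by DESeq2. At 0 to 2 members in a class and direction, these counts do not set either class apart from the background. No single-gene call in these 4 comparisons held under all 12 alternatives. The neural and Schwann list and the fibroblast list averaged higher in Emb and Fet than in either iPax group. Their part in these calls was not tested. A fit of iPax3 and Fet alone called 12 mitosis and 4 replication genes higher, and called 6369 of 16709 tested genes in either direction. In iPax7 against Emb, leaving out iPax7 replicate 1 gave 0 mitosis genes higher and 2 lower, and 2 replication genes lower, among them Cdc6 at -1.88 (adjusted p = 0.035).

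No member was called between iPax7 and iPax3, where edgeR called 0 of 22 mitosis and 0 of 15 replication genes (background 0.074%), with 1 and 0 at an unadjusted p under 0.05 and 0 and 0 by DESeq2. Medians were 0.07 and 0.22 against 0.09 over all tested genes. The widest difference was Nusap1, 1.13 ± 0.46 (SE, adjusted p = 0.69), which was 0.39 without iPax7 replicate 1. Fet and Emb also gave 0 calls in both classes by edgeR (background 3.65%), with 3 mitosis and 1 replication genes at an unadjusted p under 0.05 and 1 and 0 by DESeq2. Medians were -0.30 and -0.59 against 0.18 over all tested genes. Birc5 came nearest, at -1.31 ± 0.36 (SE, adjusted p = 0.053). A p that misses the threshold does not show that these groups are alike.

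**Figure D3:**
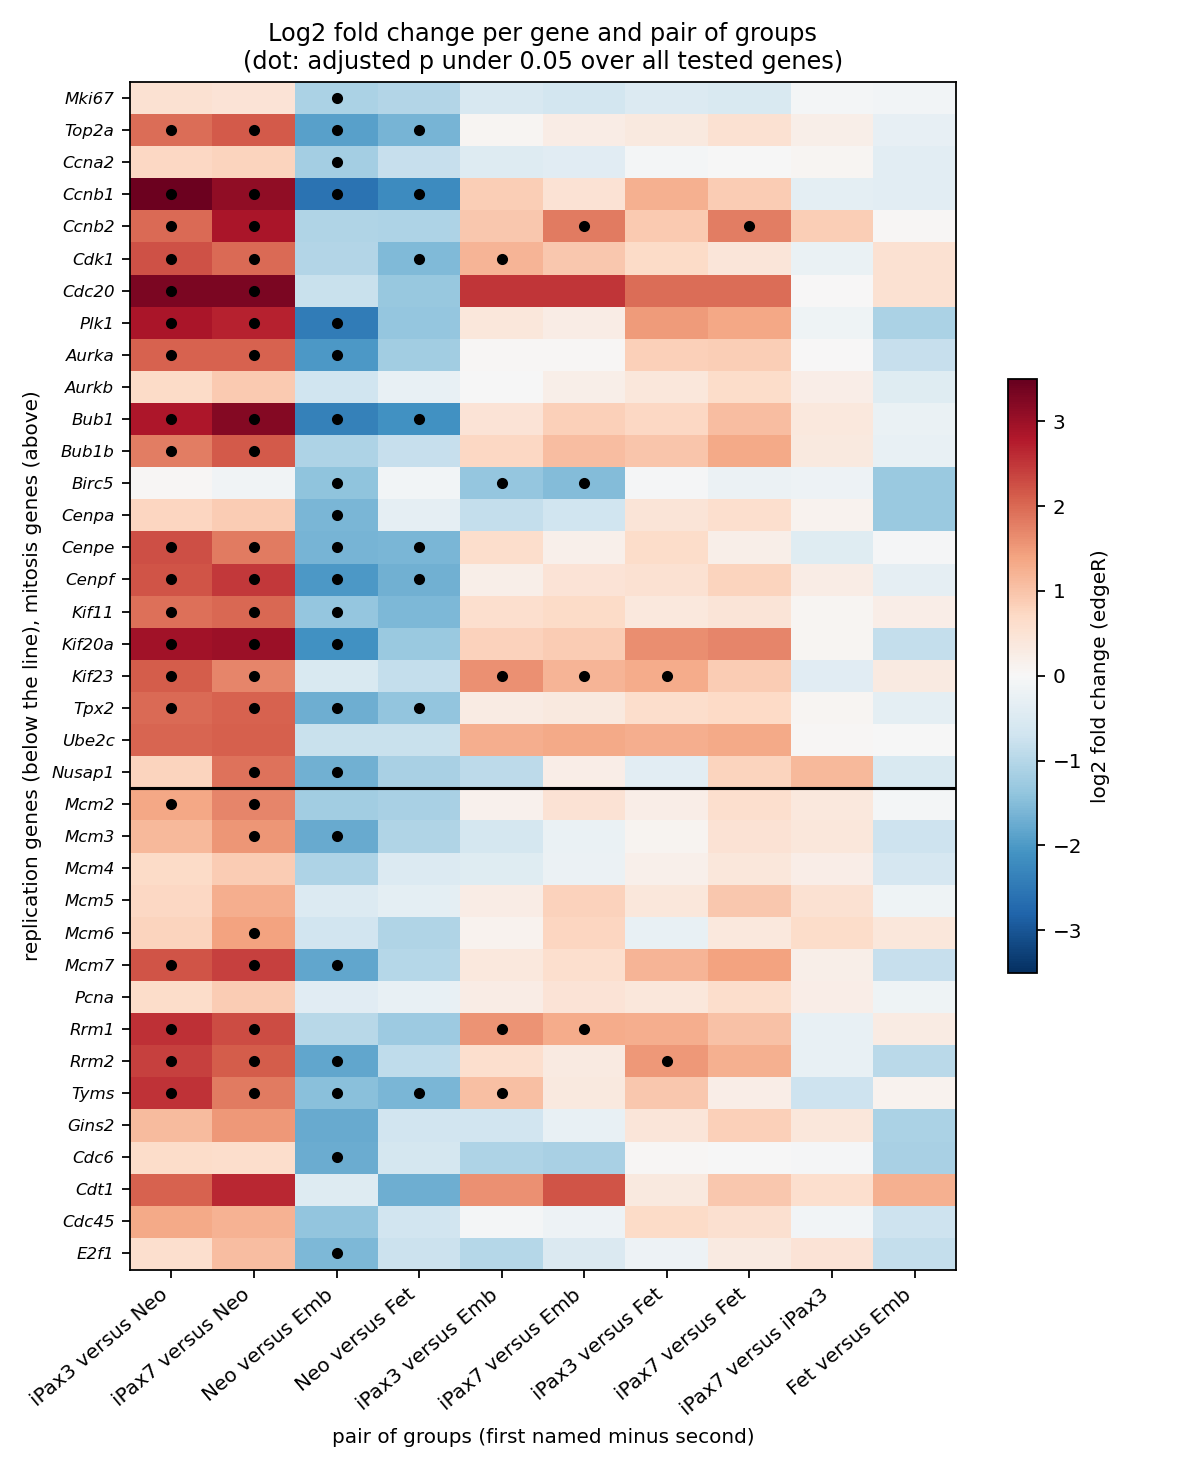
Log2 fold change of each member (rows, mitosis above the line and replication below) in the 10 pairs of groups (columns), with a dot where the adjusted p over all tested genes is under 0.05. The first 4 columns, which compare Neo with the other groups, hold 72 of the 84 dots, and the columns for iPax7 against iPax3 and Fet against Emb hold none.

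Other genes of both processes, 44 of mitosis and 38 of replication from lists that do not hold the members, showed the same direction against Neo. In iPax3 against Neo 27 of the 44 and 15 of the 38 were higher and none lower, with medians of 1.60 and 1.45. In iPax7 against Neo 29 and 14 were higher and none lower. From Emb to Neo 20 and 12 were lower. Over all tested genes 11.3% and 9.83% were higher in iPax3 and iPax7 than in Neo, and 8.43% were lower in Neo than in Emb. Ccne1, cyclin E1, which starts S phase with Cdk2, was at 251, 189.7 and 224 CPM in iPax3, 238, 157 and 180.1 in iPax7, 92.2, 48.7 and 49.1 in Emb, 109, 120.01 and 98.7 in Fet, and 6.23, 14.52 and 6.62 in Neo. It separated every iPax library from every tissue library and every Neo library from the rest, with 4.598 ± 0.41 (SE, adjusted p = 1.7e-06) for iPax3 against Neo and 1.81 ± 0.36 (SE, adjusted p = 0.0029) for iPax3 against Emb. Kif2c, a microtubule-depolymerising kinesin of centromeres, was higher in iPax3 than in Neo by 3.33 ± 0.51 (SE, adjusted p = 0.00024), and Smc2, a condensin subunit, by 1.99 ± 0.30 (SE, adjusted p = 0.00022). Rpa1, which coats single-stranded DNA, was higher by 2.11 ± 0.39 (SE, adjusted p = 0.0013). From Emb to Neo, Nek2, a centrosomal kinase, fell by 2.67 ± 0.44 (SE, adjusted p = 0.00078), and Cdc7, the kinase that fires origins, by 2.15 ± 0.41 (SE, adjusted p = 0.0021).

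Single-cell counts were available for 579 adult cells (median 10765 UMIs, molecules counted by barcode, per cell) and 2931 iPax3 cells (median 11716). A further matrix titled as a second iPax3 sample went against its title: it held 2 sets of barcodes, of which 1 shared 577 of the 579 adult cells and the other all 2931 iPax3 cells. It was taken as a repeat count of the same cells, at a median of 42580 UMIs for the iPax3 cells, and not as a replicate. The adult and iPax3 cells shared 1 barcode. With 1 library per group the differences below have no replicate check and no test, and intervals (exact Poisson for counts, exact binomial for shares, both 95%) cover counting error only. UMI CPM are UMIs scaled to a total of 1000000 over the cells of a library. The adult cells carried Pax7 at 146 UMI CPM and the iPax3 cells Pax3 at 164. Transcripts of other cell types were also in the adult cells, with the leukocyte gene Lyz2 at 804 and the endothelial gene Egfl7 at 174 UMI CPM, against 0.529 and 12.5 in iPax3; their part in the differences below was not tested.

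Mitosis transcripts were scarce in the adult cells. All 22 genes together held 200 of the adult UMIs, or 25.3 UMI CPM, and 57034 of the iPax3 UMIs, or 1370.2 UMI CPM. All 22 were more than 2-fold higher in iPax3, where 34.1% of 13015 genes with at least 20 UMIs were. The median ratio was 68.8 and the range 14.1 to 574, against a median of 1.27 over all 13015 genes. The 3 genes with 0 adult UMIs were entered at a floor of 3 UMIs. Ccnb1, Cenpe and Tpx2 had 0 adult UMIs. Against a floor of 3 UMIs over the adult cells, Ccnb1 was 127-fold higher in iPax3, Cenpe 85.04-fold and Tpx2 136-fold. The lower limits of their exact 95% intervals were 103, 69.1 and 111. Mki67 was at 0.759 UMI CPM (6 UMIs, 95% interval 0.278 to 1.65) in the adult cells and at 57.7 (2401 UMIs, 55.4 to 60.04) in iPax3, a ratio of 76.01 (34.9 to 207). Cdk1 was at 1.14 UMI CPM (9 UMIs, 95% interval 0.520 to 2.16) and 73.2 (3049 UMIs, 70.7 to 75.9), a ratio of 64.4 (33.9 to 141). Birc5, which did not pass for iPax3 against Neo in bulk, was at 1.01 UMI CPM (8 UMIs, 95% interval 0.437 to 1.99) and 186 (7735 UMIs, 182 to 190.01), a ratio of 184 (93.2 to 426).

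What was left in the adult cells came largely from 3 genes, Ube2c with 55, Top2a with 34 and Cenpa with 34 of the 200 UMIs. Top2a was at 4.30 UMI CPM (34 UMIs, 95% interval 2.98 to 6.01) in the adult cells and 193 (8036 UMIs, 189 to 197) in iPax3, a ratio of 44.9 (32.1 to 64.9). The lowest ratio of the class was that of Kif23, 14.1 (7.64 to 29.6), from 10 adult UMIs. The highest, that of Nusap1, 574 (103 to 22666), rests on 1 adult UMI. Aurkb also had 1 adult UMI, and Plk1 and Kif11 had 2 each, so these ratios have wide intervals.

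Replication transcripts were less far apart. The 15 genes held 763 adult UMIs, or 96.5 UMI CPM, and 20154 iPax3 UMIs, or 484 UMI CPM; 14 were more than 2-fold higher in iPax3 and 1, Pcna, more than 2-fold lower, where 25.1% of the 13015 genes were. The median ratio was 6.91. Pcna was at 37.6 UMI CPM (297 UMIs, 95% interval 33.4 to 42.1) in the adult cells and at 15.9 (663 UMIs, 14.7 to 17.2) in iPax3, a ratio of 0.424 (0.369 to 0.488), and made up 297 of the 763 adult UMIs. In the repeat count of the same iPax3 cells Pcna was at 32.8 UMI CPM, a ratio of 0.873 to the adult level of the first count. The size of this difference thus depends on which iPax3 count is used. The repeat count of the adult cells was not used for single genes. Pcna thus rose 2.06 times and the other 14 members 1.02 to 2.05 times between the counts of the same iPax3 cells. Over the 11837 genes with at least 20 UMIs in the first iPax3 count, the median change was 1.27 times. Against the adult level of the first count, no member but Pcna changed its side of the 2-fold mark.

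Among the helicase genes, Mcm7 was at 10.9 UMI CPM (86 UMIs, 95% interval 8.70 to 13.4) in the adult cells and 103 (4282 UMIs, 99.8 to 106) in iPax3, and Mcm6 at 6.45 UMI CPM (51 UMIs, 95% interval 4.80 to 8.48) and 27.4 (1142 UMIs, 25.9 to 29.1). Mcm2, with 3 adult UMIs, had the highest ratio of the class, 50.2 (17.1 to 244), and the loader Cdc6 the lowest of those above 1, 2.75 (1.68 to 4.80). Rrm1 was at 8.73 UMI CPM (69 UMIs, 95% interval 6.79 to 11.04) and 55.8 (2322 UMIs, 53.5 to 58.1), and Tyms at 8.22 UMI CPM (65 UMIs, 95% interval 6.34 to 10.48) and 71.7 (2984 UMIs, 69.1 to 74.3). E2f1 was at 1.52 UMI CPM (12 UMIs, 95% interval 0.784 to 2.65) and 13.7 (570 UMIs, 12.6 to 14.9). Adult cells thus held more replication than mitosis UMIs, and iPax3 cells the reverse.

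**Figure D4:**
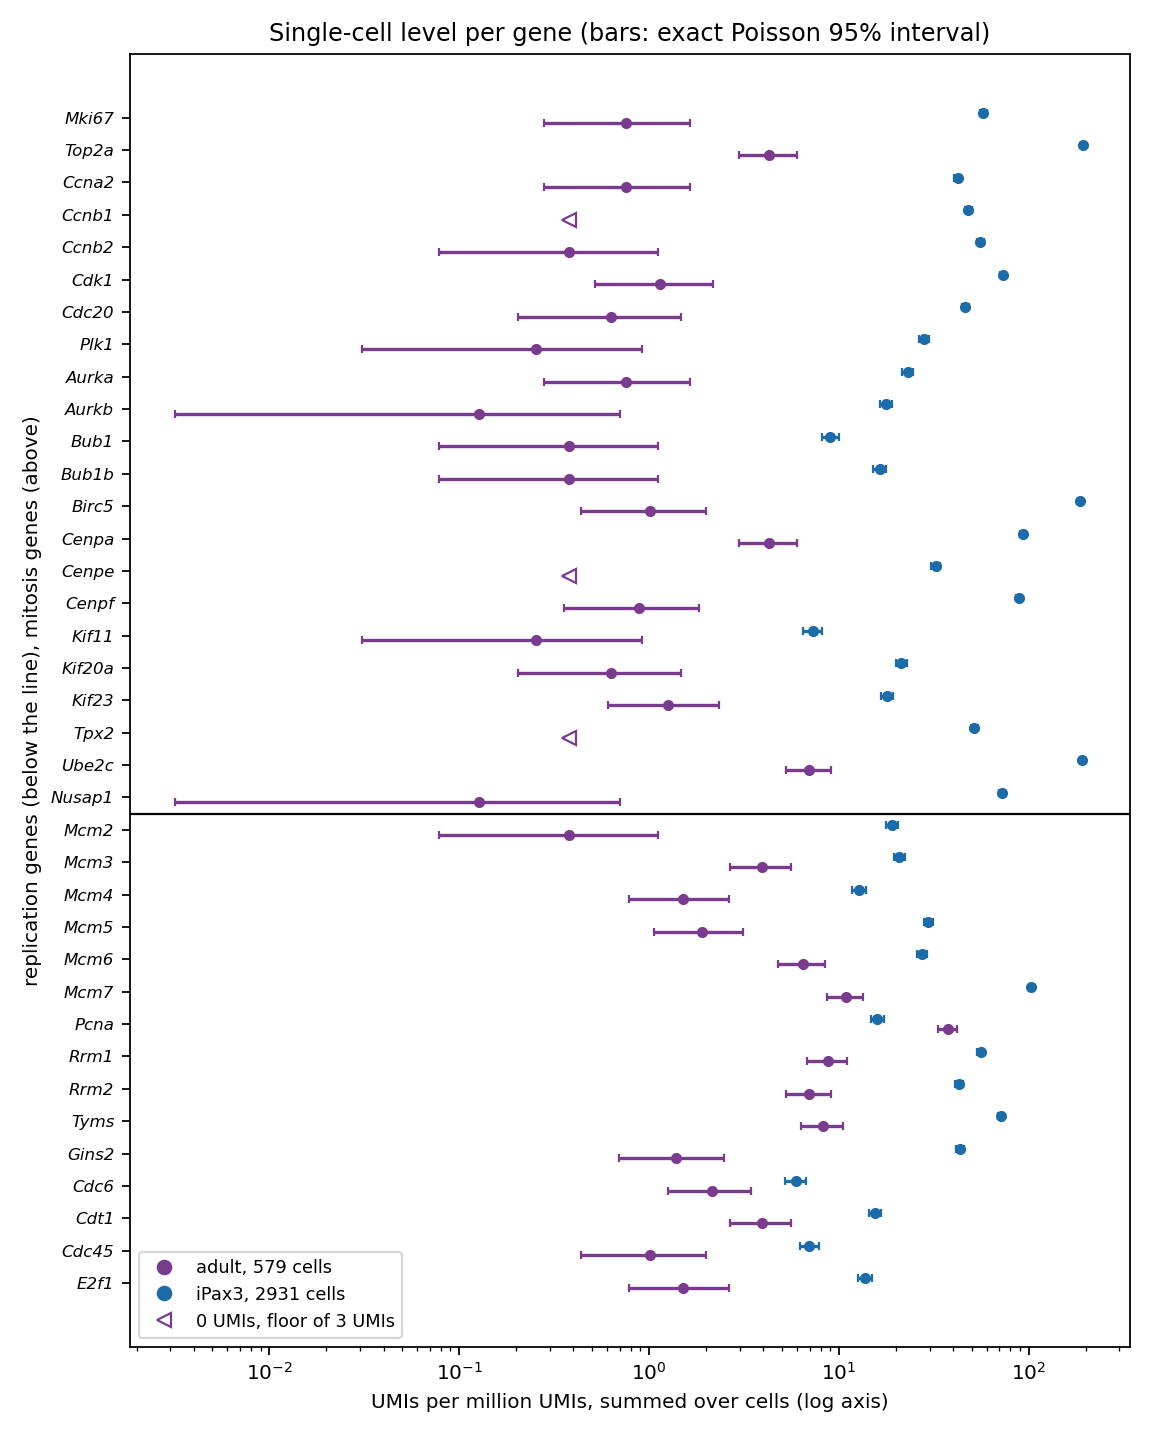
UMI CPM on a log axis for each member in the 579 adult cells and the 2931 iPax3 cells, with exact Poisson 95% intervals and genes with 0 adult UMIs at the floor of 3 UMIs. Pcna is the 1 gene whose adult point lies to the right of its iPax3 point.

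Shares of cells were compared after thinning each cell to 3000 UMIs, a depth all cells reached. At least 1 mitosis UMI was found in 34 of 579 adult cells (5.87%, 4.10 to 8.11) and in 2613 of 2931 iPax3 cells (89.2%, 88.0 to 90.3). At least 3 were found in 1 adult cell (0.173%) and in 59.9% of iPax3 cells. At least 1 replication UMI was found in 26.8% (23.2 to 30.6) of adult and 70.01% (68.3 to 71.7) of iPax3 cells, and at least 3 in 0.518% and 20.1%. Without thinning the shares with at least 1 were 23.7% and 99.1% for mitosis and 62.9% and 93.4% for replication. In iPax3, 15.4% of cells held at least 3 UMIs of both classes, 44.6% of mitosis alone, 4.74% of replication alone and 35.3% of neither. The class with more UMIs per cell reaches a threshold of 3 more easily, so these shares are not phases of the cycle. Of the 431 adult cells with a Pax7 UMI, 29 (6.73%, 4.55 to 9.52) held a mitosis UMI after thinning, and of the 148 without, 5 (3.38%, 1.11 to 7.71).

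Barcodes with too few UMIs to be cells give the free RNA of each library. In iPax3 the 98812 barcodes with at least 10 UMIs and under 10% of the cell threshold (median 161 UMIs) held 1106 mitosis and 378 replication UMI CPM, against 1370.2 and 484 in its cells. In the adult library 15214 such barcodes (median 15 UMIs) held 20.7 and 114 UMI CPM, against 25.3 and 96.5 in its cells. In both classes the low barcodes and the cells of a library differed by less than the adult and iPax3 libraries did. The part of free RNA in the share of iPax3 cells with a UMI was not tested.

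Within the iPax3 cells the mitosis genes did not follow the 1-UMI mark of Myog, the regulator of muscle differentiation. Of the 1517 cells with a Myog UMI (median 13160 UMIs), 59.5% (57.0 to 62.0) held at least 3 mitosis UMIs after thinning, against 60.4% (57.8 to 63.0) of the 1414 cells without (median 10724.5) and 63.5% (56.9 to 69.7) of the 230 cells with Myf5 and no Myog. For replication the shares were 20.4%, 19.8% and 24.3%. The 871 cells with at least 2 Myog UMIs gave 58.7% (55.3 to 61.96) for mitosis and 20.2% (17.6 to 23.03) for replication. In the 101 cells with at least 10 Myog UMIs, a class set after the data were seen, the mitosis share was 49.5% (39.4 to 59.6) and the replication share 12.9% (7.04 to 21.0). The mean thinned mitosis UMIs of these cells, 4.07, was as high as the 3.98 of all iPax3 cells, and their mean for replication was 1.01 against 1.44. In the repeat count 2858 of the 2931 cells had a Myog UMI, so a single UMI does not split these cells. There 942 cells had at least 10 Myog UMIs, with shares of 72.6% (69.6 to 75.4) for mitosis and 27.4% (24.6 to 30.4) for replication, against 73.97% (62.4 to 83.5) and 21.9% (13.1 to 33.1) in the 73 cells without Myog. These intervals overlap in both classes.

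The authors' deposited table of 7 iPax3 clusters gives each gene's log2 fold change between a cluster and the other cells; clusters were made by the authors from all genes, these among them, so the values are a description. In the authors' deposited table the mitosis genes were highest in cluster 3, with a median of 0.73, where Nusap1 (1.26), Mki67 (1.22), Aurkb (1.03) and Top2a (1.004) were the 4 members over 1. They were lowest in cluster 4, with a median of -1.49 and 18 of 22 below -1, and in cluster 7, with a median of -1.17 and 19 of 22 below -1. Replication genes shifted the same way by less in the authors' deposited table, with medians of 0.47 in cluster 3, -0.84 in cluster 4 and -0.70 in cluster 7. Cluster 1, in which the authors' deposited table lists Myog at 5.68 mean UMIs per cell against at most 0.901 in the others, had medians near 0, -0.13 for mitosis and -0.07 for replication. Within cluster 1 the members diverged: in the authors' deposited table Tyms (-0.82) and Rrm1 (-0.71) were the lowest and Ccna2 (0.56) the highest. Cluster 2 leaned to replication, with a median of 0.32 there and 0.04 for mitosis in the authors' deposited table, Tyms (0.62) being the highest and Kif11 (-0.53) the lowest. The summed mean UMIs of the 22 mitosis genes in the authors' deposited table ranged from 6.60 per cell in cluster 4 to 24.1 in cluster 3. Every cluster thus held mitosis transcripts, and the part of free RNA in these sums was not tested.

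**Figure D5:**
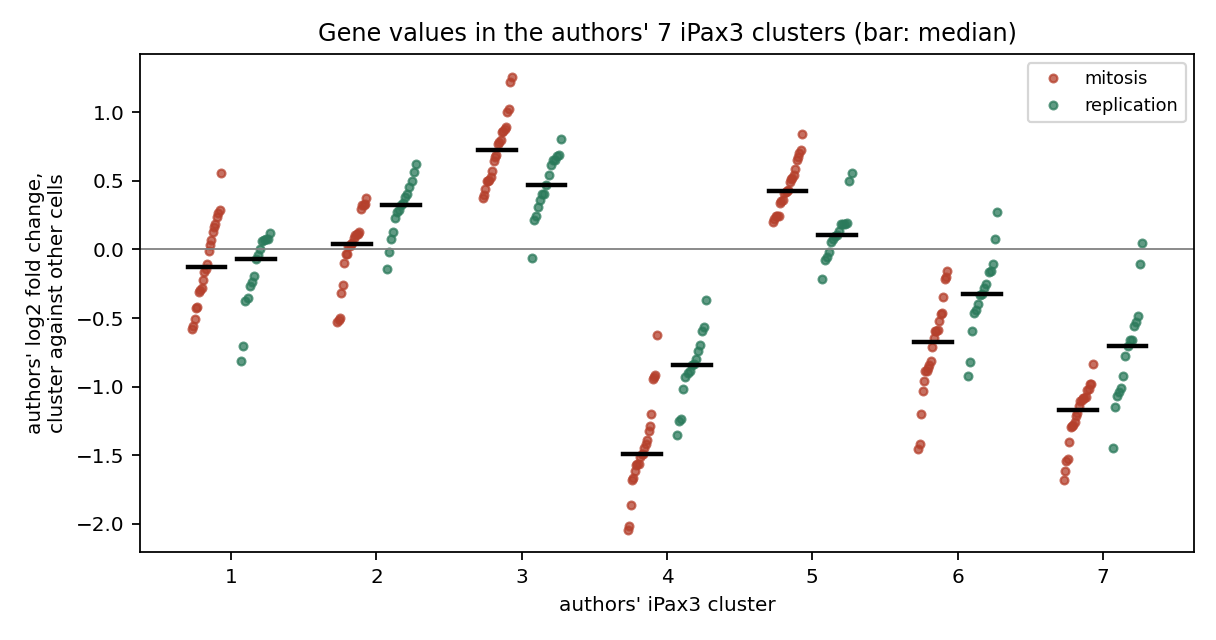
Log2 fold change of each member in the authors' 7 iPax3 clusters, 1 point per gene, mitosis in red and replication in green, with the median as a bar. Both medians of clusters 2, 3 and 5 lie above 0 and those of clusters 1, 4, 6 and 7 below it. Mitosis genes spread further from 0 than replication genes in cluster 4.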

How the data were processed

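Bulk counts of 15 libraries and single-cell UMI counts of 2 libraries were analysed, with a matrix that repeats the counts of both. The deposited bulk counts are raw reads per gene; per the submitters' processing notes, CASAVA 1.8, HISAT2 2.0.2 and Subread featureCounts 1.4.6 were used with mm10, and CASAVA 1.8 and Cell Ranger 2.2.0 for single cells. The annotation release and strand setting are not given in the sources used here, and 10 members have an exon overlapped by another gene. Of 47728 genes, 17571 passed filterByExpr and were tested with edgeR 4.0.16 in R 4.3.3 (TMM scaling, robust quasi-likelihood fit, 1 mean per group, Benjamini-Hochberg adjustment over all tested genes). CPM were scaled by TMM, with a prior of 1 added only for list means. DESeq2 1.42.0 was an alternative. Log2 fold changes here are from edgeR unless they are named as deposited. The fits were tested on simulated data.

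Totals ran from 516504 to 56275318 counts per bulk library, so counting error differs between them. No 2 replicates agreed within counting noise (chi-square per degree of freedom 7.70 or more). Deposited single-cell matrices list all barcodes. To count as a cell, a barcode needed 500 UMIs, a mitochondrial share of 10% or less, and a UMI total no lower than 10% of a reference value, taken as percentile 99 among the 3000 barcodes with most UMIs. Doublets were not called. In the authors' deposited cluster tables the mean UMIs (a depth-scaled score, not a raw count) and the log2 fold change were read, and the adjusted p-values over cells were not printed, since cells are not replicates.

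The members, the lists and the tests were chosen with earlier results of these data known. All 37 members are accounted for. Values in every library are given for 17 members chosen by function and for up to 3 members of each class with the smallest adjusted p in a pair of groups; other pathway genes are named by the smallest adjusted p, up to 3 per pair. Alternatives were DESeq2's size factors in edgeR, no filter, DESeq2, the replicate number as a block, a fit of 2 groups alone, each library left out, and iPax7 replicate 1 and Fet replicate 1 left out together. The repeat count and the class with at least 10 Myog UMIs were added after seeing the data.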

Additional observations from a re-analysis of the deposited data

How the results depend on the processing

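Over the 12 alternatives, 1547 member fold changes kept their direction and their side of the threshold, 198 no longer passed, 35 newly passed and 20 changed sign. Counts of members called in iPax3 against Neo, and of mitosis members in iPax7 against Neo and in Neo against Emb, stayed within 1.5 times. DESeq2's size factors moved the median of all genes by -0.25 in iPax3 against Neo, -0.17 in iPax7 against Neo, -0.14 in iPax3 against Fet, 0.15 in Neo against Emb and 0.10 in Neo against Fet. Replicate numbers do not pair the libraries: deviations of same-numbered libraries from their group means correlated at -0.353 to 0.0889.

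Where only 1 or 2 members were called, most alternatives moved the count; the cause was not tested. In iPax3 against Emb, higher mitosis calls (2) became 1 with DESeq2's size factors and 1 in the fit of 2 groups, lower ones (1) became 2 in that fit, and with single libraries left out they were 1 to 2 and 0 to 1. Higher replication calls there (2) became 1 with DESeq2's size factors, with no filter, under the replicate block and without both doubted libraries, 0 in the fit of 2 groups, and 0 to 3 with single libraries left out, and lower ones (0) became 1 in the fit of 2 groups. In iPax3 against Fet, mitosis calls (1) became 0 with DESeq2's size factors and under the replicate block, 3 with no filter and 12 in the fit of 2 groups, and 0 to 0 with single libraries left out. Replication calls there (1) became 3 with no filter, 0 without both libraries, 4 in the fit of 2 groups, and 0 to 1. In iPax7 against Emb, higher mitosis calls (2) became 1 under the replicate block, 0 without both libraries and in the fit of 2 groups, and 0 to 4; lower ones (1) became 2, 0 and 0 to 2 without both libraries, in that fit and with single libraries left out. Higher replication calls there (1) became 0 in the fit of 2 groups and 0 to 2, and lower ones (0) became 2 without both libraries and 0 to 2. In iPax7 against Fet, mitosis calls (1) became 2 with no filter and with DESeq2, 0 under the replicate block, without both libraries and in the fit of 2 groups, and 0 to 1; replication calls (0) became 2 with no filter, 1 with DESeq2 and 0 to 1.

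In iPax7 against Neo, replication calls (7) became 4 without both libraries and in the fit of 2 groups, and 4 to 8 with single libraries left out. In Fet against Emb, lower mitosis calls (0) became 1 with no filter and with DESeq2, 2 without both libraries, and 0 to 1, and higher replication calls 0 to 1. In Neo against Fet, mitosis calls (7) became 4 with DESeq2's size factors and under the replicate block, and 0 to 4; replication calls (1) became 0 under the replicate block, 2 without both libraries and in the fit of 2 groups, and 0 to 1. In Neo against Emb, replication calls (6) became 3 in the fit of 2 groups and 3 to 7, and higher ones (0) became 0 to 1. A group with 1 library left out rests on 2 libraries.

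Of the fold changes that changed sign, Cdt1 in Neo against Emb passed the threshold without Emb replicate 1 (edgeR adjusted p = 0.00040) and no other did under the alternative that turned it; the cause was not tested. Birc5 in iPax3 against Neo became -0.21 with DESeq2's size factors and with DESeq2, and ran from -0.17 to 0.40 with single libraries left out, negative without iPax3 replicate 3 or Neo replicate 3. Birc5 in iPax7 against Neo ran from -0.40 to 0.22, positive without replicate 2 of either group. Without iPax7 replicate 1 and Fet replicate 1 together, Nusap1 became -0.52 and Mcm6 -0.16 in iPax7 against Emb, Cdc6 -0.15 in iPax7 against Neo, and Mcm6 -0.27 and Mcm5 -0.56 in iPax7 against iPax3. In the same order these ran from -0.50 to 0.57, -0.14 to 1.17, -0.14 to 0.95, -0.28 to 1.03 and -0.58 to 0.94 with single libraries left out, the lowest value being that without iPax7 replicate 1. In Neo against Emb, Pcna ran from -0.70 to 0.032, positive without Emb replicate 1, and Ube2c from -1.36 to 0.30, positive without Emb replicate 3. Cdt1 there became 1.13 under the replicate block and ran from -1.10 to 10.78, the highest without Emb replicate 1 being a fitted value against 0 counts that is no bound.

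With mitochondrial and ribosomal protein genes out of the total, mitosis UMI CPM became 42.2 in the adult and 2358 in the iPax3 cells, and replication UMI CPM 161 and 833. In the repeat count they were 1796 (iPax3, mitosis), 648 (iPax3, replication) and 105 (adult, replication). Thinned to 1500 UMIs, shares with at least 1 UMI were 76.7% (iPax3, mitosis), 47.9% (iPax3, replication) and 14.3% (adult, replication), and in the repeat count the iPax3 shares were 97.2% and 81.5%. Shares with at least 3 mitosis UMIs were 31.6%, 31.1% and 31.3% at 1500 UMIs and 76.98%, 73.97% and 72.7% in the repeat count for cells with Myog, without it, and with Myf5 and no Myog. For replication they were 5.47%, 5.30% and 5.65% at 1500 UMIs, and 29.5%, 21.9% and 12.1% in the repeat count for the same cells. With at least 10 Myog UMIs in place of 1, the first count at 3000 UMIs gave 49.5% for mitosis and 12.9% for replication, 1500 UMIs gave 29.7% and 3.96%, and the repeat count gave 72.6% and 27.4%.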
